A study of Mus musculus with 18 samples.

Results

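Imprinted genes are read from only the maternal or only the paternal chromosome, and 10 of them with known roles in growth and stem cell dormancy are described here across mouse blood stem and progenitor cells and leukemia. The 10 were H19, Igf2, Meg3, Rian, Dlk1, Cdkn1c, Ndn, Grb10, Peg3 and Plagl1, chosen by symbol from an expression table of 53946 genes, and each symbol matched 1 row. The study measured RNA by sequencing of 12 libraries, 4 groups of 3, DNA methylation by whole-genome bisulfite sequencing in 1 library for each of the same groups, and the histone mark H3K36me3 by ChIP-seq in 2 libraries. The study addressed how loss of Setd2, the enzyme that places H3K36me3, alters blood formation and the passage from myelodysplastic syndrome to acute myeloid leukemia (AML).

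All groups were labelled with strain C57BL/6. WT libraries were of blood stem and progenitor cells (HSPCs), flow-sorted out of the marrow of C57BL/6 mice with no transgene named. NHD13 libraries came from marrow HSPCs of mice labelled NHD13/Setd2 flox/flox, which carry the NUP98-HOXD13 fusion transgene and floxed Setd2 alleles. KO-labelled libraries came from marrow HSPCs labelled NHD13/Setd2 KO, with the transgene and Setd2 deleted through Mx1-Cre. AML libraries came from C-Kit+ cells sorted from spleen at the leukemia stage and labelled NHD13/Setd2 KO - AML, so AML differed from the KO-labelled group in tissue, sort and disease stage together. The ChIP libraries were C-Kit+ spleen cells at the leukemia stage, 1 labelled NHD13 - AML and 1 labelled NHD13/Setd2 KO - AML. Mx1-Cre is driven by an interferon-inducible promoter that is active in blood cells and in other tissues. No source used here gives the age, the inducing agent or whether the flox/flox mice carried Mx1-Cre. Nor does any say that the 3 libraries within a group were from different animals, so each p-value reflects library-to-library spread that may be technical.

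At imprinted genes the silent and the active copy differ in DNA methylation at CpG-rich control regions, so a cell that keeps its imprints has such a region methylated on the copy from a single parent. In long-term blood stem cells several of these genes are known to be linked with dormancy. Cdkn1c encodes the cell cycle inhibitor p57 and Ndn encodes necdin. H19 is a noncoding RNA whose gene shares an imprinted domain with the growth factor gene Igf2. Meg3 and Rian are noncoding RNAs of the domain of the Notch-like ligand gene Dlk1. Grb10 encodes an adaptor that dampens signals of the insulin and IGF1 receptors, and Plagl1 and Peg3 encode zinc finger proteins.

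The promoters of Grb10, Igf2, Plagl1, Peg3 and Ndn are shown because a listed region of changed DNA methylation overlapped each of them. They are the 250 bases before the transcription start, written along the gene's strand, from RefSeq on GRCm38.p6 (mm10), where 8 of the 10 genes had an entry. Capitals mark each CG, the site of DNA methylation, which reads the same on both strands.
Grb10, chr11:12037421-12037670, minus strand, 40 CG: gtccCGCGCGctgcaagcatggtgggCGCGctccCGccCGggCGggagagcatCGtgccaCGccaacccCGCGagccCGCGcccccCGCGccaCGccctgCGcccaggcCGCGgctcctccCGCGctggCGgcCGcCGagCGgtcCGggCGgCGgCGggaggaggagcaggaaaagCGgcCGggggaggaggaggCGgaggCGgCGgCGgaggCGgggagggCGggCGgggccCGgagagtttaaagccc
Igf2, chr7:142658805-142659054, minus strand, 22 CG: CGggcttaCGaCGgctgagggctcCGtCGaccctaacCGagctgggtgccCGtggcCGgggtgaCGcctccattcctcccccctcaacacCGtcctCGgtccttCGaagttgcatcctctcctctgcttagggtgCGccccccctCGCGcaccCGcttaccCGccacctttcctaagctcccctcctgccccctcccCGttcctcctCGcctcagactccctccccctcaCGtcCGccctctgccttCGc
Plagl1, chr10:13090582-13090831, plus strand, 19 CG: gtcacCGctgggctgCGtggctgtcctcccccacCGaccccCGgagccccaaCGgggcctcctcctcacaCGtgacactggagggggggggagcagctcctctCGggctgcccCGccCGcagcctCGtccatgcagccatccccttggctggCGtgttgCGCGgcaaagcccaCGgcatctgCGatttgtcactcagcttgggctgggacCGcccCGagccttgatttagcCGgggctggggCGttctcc
Peg3, chr7:6730420-6730669, minus strand, 8 CG: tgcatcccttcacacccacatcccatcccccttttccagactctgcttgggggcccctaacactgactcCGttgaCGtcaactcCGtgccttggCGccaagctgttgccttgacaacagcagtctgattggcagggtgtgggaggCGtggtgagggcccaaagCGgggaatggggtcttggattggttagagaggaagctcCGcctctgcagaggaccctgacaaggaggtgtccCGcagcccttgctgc
Ndn, chr7:62348027-62348276, plus strand, 5 CG: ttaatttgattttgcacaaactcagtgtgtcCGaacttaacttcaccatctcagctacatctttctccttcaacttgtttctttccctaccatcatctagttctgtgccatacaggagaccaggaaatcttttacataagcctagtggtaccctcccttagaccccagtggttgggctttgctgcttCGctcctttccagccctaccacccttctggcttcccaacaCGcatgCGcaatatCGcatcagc

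The Grb10 promoter was among the most CG-rich of the table. Of 32851 promoters of the same length, 1.31% held at least 40 CG, 14.8% at least 22, 19.7% at least 19, 43.0% at least 8 and 55.6% at least 5. The Ndn promoter was therefore close to the middle of the table, and the CpG-rich sequence of the Ndn region described below lay mostly inside the gene.

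Library totals lay between 18673704 counts (in AML) and 28127686 (in a KO-labelled library). Setd2 stood at 42.1 ± 4.33 CPM (counts in every 1000000 of the library, scaled for composition; mean ± SD, n = 3) in WT, 33.5 ± 1.72 in NHD13, 32.4 ± 2.91 in the KO-labelled libraries and 183 ± 4.14 in AML. It was not detectably lower in the KO-labelled libraries than in NHD13 (log2 fold change -0.05 ± 0.08 SE, edgeR adjusted p = 0.685). A count over the whole gene may miss a deleted exon, so the counts do not check the label, and each direction involving the KO-labelled or AML libraries rests on the labels. Xist stood at 66.0 to 218 CPM in WT and NHD13 and at 0 to 0.105 CPM in the other libraries, while the Y-linked Eif2s3y stood at 0 to 0.0494 CPM and at 57.6 to 71.3 CPM, so sex and the Setd2 label cannot be told apart. Replicates were compared by a chi-square over tested genes with enough reads in the pair, divided by its degrees of freedom. Replicate 1 of WT stood apart from replicates 2 and 3, at 29.5 and 28.3 against 3.91 between those 2. In NHD13, replicate 2 stood apart from replicates 1 and 3, at 12.2 and 23.1 against 7.85 between those 2. Kit, the receptor used for the spleen sort, was present in every group (69.4 to 217 CPM), whereas the progenitor marker Cd34 averaged 388 CPM in WT, 12.6 in NHD13, 147 in the KO-labelled libraries and 224 in AML.

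Most of the 10 genes were silent or nearly so. Igf2, the fetal growth factor gene (ENSMUSG00000048583), had 1 read in all 12 libraries, in AML replicate 2. Peg3 (ENSMUSG00000002265) had 1 read in all, in WT replicate 2. H19 (ENSMUSG00000000031) had 4 reads in all, 1 in NHD13, 2 in the KO-labelled libraries and 1 in AML. No fold change is given where both groups total 3 reads or fewer. A group at 0 gives a fold against a floor of 3 reads, with the lower limit of the counting interval. One with 1 to 3 reads gives a ratio with its counting interval. A total of 3 reads over a group corresponds to 0.0409 CPM in WT, 0.0519 in NHD13, 0.0452 in the KO-labelled libraries and 0.0415 in AML, the level that a count of 0 allows (counting error only). Meg3 (ENSMUSG00000021268) and Rian (ENSMUSG00000097451) had 22 reads each and Dlk1 (ENSMUSG00000040856) had 48. Only Grb10, Ndn, Cdkn1c and Plagl1 passed the filter on low counts, so 4 of the 10 entered the test over 16233 genes. Ndn passed it only through WT, so its difference from the other groups was in part a condition of its being tested.

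**Figure D1:**
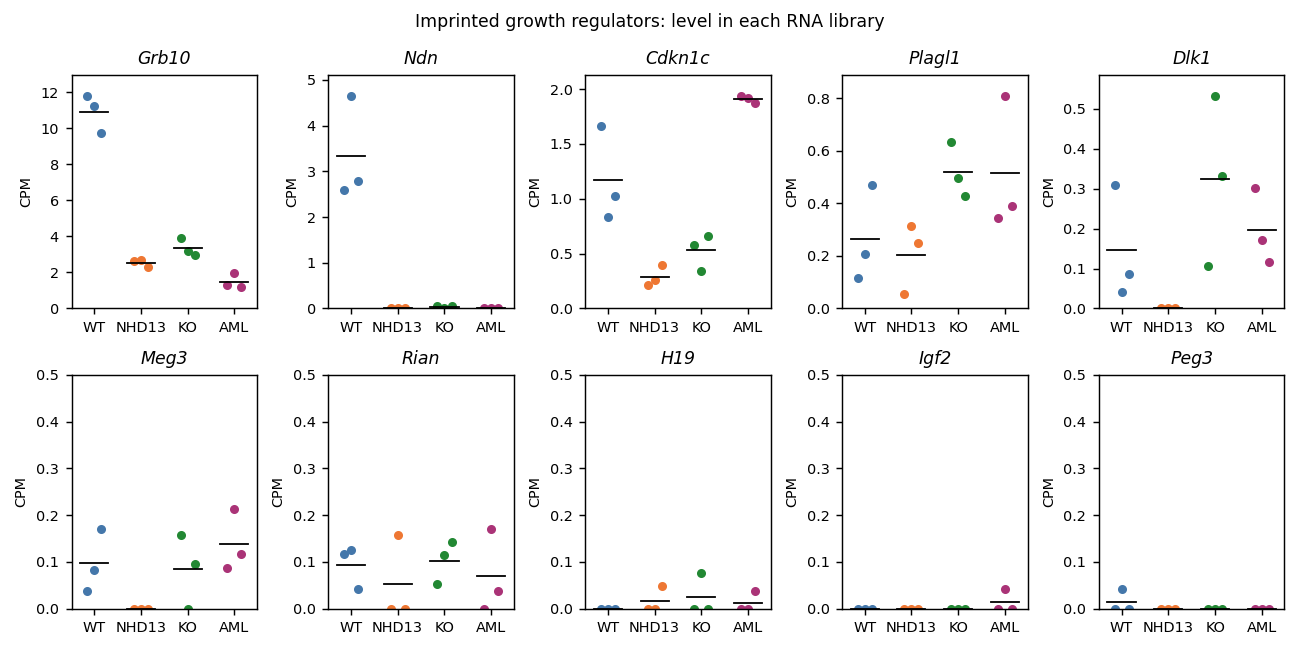
Level of each of the 10 genes in each of the 12 RNA libraries, in CPM on a linear axis that differs between panels. Points are libraries and bars are group means (n = 3). KO means the KO-labelled libraries. Grb10 and Ndn are highest in WT, Cdkn1c is highest in AML, and H19, Igf2 and Peg3 lie at or near 0 throughout.

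Per kilobase of gene length (FPKM, which carries no correction for library composition), Grb10 was the highest of the 10 in WT at 1.28 ± 0.142, followed by Ndn at 0.960 ± 0.314 and Cdkn1c at 0.616 ± 0.241 (SD, n = 3). Grb10 and Ndn overlapped within their spread there. In AML the order was different, with Cdkn1c first at 1.16 ± 0.0211 FPKM and Grb10 next at 0.200 ± 0.0551. In NHD13 and the KO-labelled libraries Grb10 led at 0.227 ± 0.0201 and 0.343 ± 0.0493 FPKM, ahead of Cdkn1c at 0.116 ± 0.0371 and 0.240 ± 0.0745. Plagl1 and Dlk1 stayed under 0.1 FPKM on average in every group.

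NHD13 against WT addressed the effect of the transgene in marrow HSPCs. Grb10, Ndn and Cdkn1c fell and none of the 10 rose, so 3 of the 4 genes tested were called lower. Of all genes tested, 54.0% were called in either direction, 25.3% higher and 28.7% lower. The unadjusted p was below 0.05 for the same number, 3 of 4, and DESeq2 also called 3 lower and 0 higher. A count of 3 in 4 read against that background sets nothing apart. That count includes Ndn, which passed the filter on low counts only through WT, so its fall was in part a condition of its being tested. The libraries are bulk RNA, and fewer cells of a type cannot be told apart from less RNA per cell.

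Grb10 (ENSMUSG00000020176; chr11, 11930499 to 12037428 in mm10) stood at 11.8, 11.2 and 9.71 CPM in WT replicates 1, 2 and 3, and at 2.65, 2.67 and 2.27 CPM in NHD13. Every WT library lay above every NHD13 library, as held for 3 of the 4 tested genes and, in one direction or the other, for 56.0% of all genes tested. The fall was 4.31-fold (log2 -2.11 ± 0.18, adjusted p = 8.03e-09).

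Ndn (ENSMUSG00000033585; chr7, 62348277 to 62349928) was read 67, 112 and 65 times in WT, or 2.59, 4.65 and 2.78 CPM, and 0 times in each of the 3 NHD13 libraries. All NHD13 libraries were at 0 and all WT libraries well above it. Against a floor of 3 reads over the NHD13 group, Ndn was 64.1-fold lower (lower limit of the counting interval 51.8, edgeR adjusted p = 1.90e-07).

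Cdkn1c (ENSMUSG00000037664; chr7, 143458339 to 143461059) stood at 1.66, 0.831 and 1.03 CPM in WT and at 0.216, 0.262 and 0.396 CPM in NHD13. The groups did not overlap, and replicate 1 of WT was the highest of the 6 libraries. The fall was 3.96-fold (log2 -1.99 ± 0.40, adjusted p = 3.57e-04).

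Plagl1 (ENSMUSG00000019817; chr10, 13090832 to 13131694) stood at 0.116, 0.208 and 0.471 CPM in WT and at 0.0540, 0.315 and 0.247 CPM in NHD13. These ranges overlapped, and the difference did not pass the test (log2 -0.32 ± 0.67, 95% interval -1.74 to 1.09, adjusted p = 0.716).

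The low-count genes of the Dlk1 domain were at or near 0 in NHD13. Dlk1 was read 8, 1 and 2 times in WT and 0 times in each NHD13 library. It was 2.89-fold lower against the floor (lower limit of the counting interval 1.98). Of the 11 WT reads 8 were in replicate 1, the library that stood apart, and the other 2 libraries held 3 reads, no more than the floor. Dlk1 passed only in the fit without a filter on low counts (adjusted p = 0.0157 over 33660 genes, of which 27.5% were called). Meg3 was read 1, 2 and 4 times in WT and 0 times in NHD13, 1.84-fold lower against the floor (lower limit of the counting interval 1.14). It did not pass in that fit (edgeR adjusted p = 0.0815). Rian was read 3, 3 and 1 times against 0, 3 and 0 times (a ratio of 1.84 with a counting interval of 0.420 to 11, which includes no change).

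Stem cell markers moved with these genes. Of 15 listed markers, 14 were tested and 13 fell, with a median log2 fold change of -4.16 against -0.04 over all genes tested. Among those that fell, Fgd5 and Tek passed the filter on low counts only through WT, so their falls were in part a condition of being tested. The summed level of the listed markers was 815 to 844 CPM in WT against 121 to 131 CPM in NHD13. Cd34, which is also on the C-Kit+ progenitor list, made up 388 CPM of it in WT and 12.6 in NHD13. The sum is therefore no measure of stem cells alone. Markers of stroma and endothelium, cells outside the blood lineage that also express imprinted genes, fell from a sum of 64.5 to 67.3 CPM to 23.5 to 26.1 CPM over 13 genes, of which 5 of 8 tested fell and 2 rose. Most of that sum came from Pecam1 and Pdgfrb, and among fibroblast genes Col1a1 and Col3a1 were at 0.0516 and 0.0855 CPM in WT, with Dcn at 0 in all WT libraries and Cdh5 at 0 in all NHD13 libraries. The fibroblast gene Col1a2 stood at 0.771 CPM in WT and fell to 0.0180 in NHD13 (log2 -5.09 ± 1.19, adjusted p = 0.00154), having entered the test through WT alone. Cxcl12 of the same list entered the test through NHD13 alone. The part of these cell mixtures in the falls of Grb10, Ndn and Cdkn1c was not tested.

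Markers of other blood cells moved as well. In NHD13 against WT all 7 neutrophil markers rose, and all 5 C-Kit+ progenitor and all 5 mast cell markers fell. There 4 of 5 B cell markers fell, and 3 of 5 erythroid markers rose with 1 lower. The mast cell marker Fcer1a passed the filter on low counts only through WT, so its fall was in part a condition of its being tested. In the KO-labelled libraries against NHD13 all 7 neutrophil markers fell, all 5 progenitor markers rose, 4 of 5 mast cell markers rose with 1 lower, all 5 B cell markers fell and 2 of 5 erythroid markers fell. In AML against the KO-labelled libraries 5 of 7 neutrophil markers rose with 2 lower, 4 of 5 progenitor markers rose, 4 of 5 mast cell markers fell, 2 of 5 B cell markers fell with 1 higher, and 3 of 5 erythroid markers fell with 1 higher. Fold changes of that last comparison followed gene length, and with the length trend removed 2 progenitor markers rose and 2 fell, 3 mast cell markers fell, and 2 B cell markers rose with 1 lower. Neutrophil markers summed to 23535 to 27353 CPM in WT, 127431 to 147626 in NHD13, 47388 to 50302 in the KO-labelled libraries and 21184 to 21607 in AML, and their part in the values of the 10 genes was not tested.

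The comparison of the KO-labelled libraries with NHD13 asked what the loss of Setd2 changed on the transgenic background. None of the 4 tested genes passed edgeR's adjusted threshold, against 40.9% of all genes tested, 20.6% up and 20.3% down. At an unadjusted p below 0.05, 1 of the 4 was counted, and DESeq2 called none. In the KO-labelled libraries Grb10 stood at 3.90, 3.20 and 2.99 CPM, above the highest NHD13 library at 2.67 CPM. The groups did not overlap for Grb10 and Plagl1, 2 of the 4 (background 49.8%), but the 1.32-fold Grb10 difference missed the threshold (log2 0.40 ± 0.20, adjusted p = 0.110).

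Plagl1 stood at 0.632, 0.495 and 0.427 CPM in the KO-labelled libraries, each above the highest NHD13 library at 0.315 CPM. The estimate was a log2 difference of 1.29 ± 0.61 (95% interval 0.00134 to 2.58, adjusted p = 0.103). For Cdkn1c the values were 0.580, 0.342 and 0.664 CPM, overlapping with NHD13 (log2 0.81 ± 0.46, adjusted p = 0.174). Ndn was read 1, 0 and 1 times, which with 0 reads in NHD13 gives no fold change.

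Dlk1 was read 2, 14 and 7 times in the KO-labelled libraries against 0 in all 3 NHD13 libraries. All KO-labelled libraries lay above NHD13, although replicate 2 held more than the other 2 together. Dlk1 was 6.68-fold higher against the floor (lower limit of the counting interval 5.01). It passed in the fit without a filter on low counts (edgeR adjusted p = 5.28e-04, with 19.9% of 33660 genes called). Meg3 was read 3, 0 and 2 times (adjusted p = 0.159 in that fit). Of the stem cell markers, 10 of 14 tested rose and none fell, to a sum of 377 to 395 CPM, of which Cd34 made up 147. Stroma and endothelium markers rose to a sum of 63.0 to 68.9 CPM, with 3 of 8 tested higher (Pecam1, Pdgfrb and Vwf) and 1 lower (Acta2). Most of that sum came from Pecam1 at 37.1 CPM and Pdgfrb at 20.1. The fibroblast genes Col1a1, Col1a2 and Col3a1 averaged 0.143, 0.103 and 0.0605 CPM in the KO-labelled libraries, so the sum says little of them. The part of the stem cell, stroma and endothelium markers in the Dlk1 reads was not tested.

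**Figure D2:**
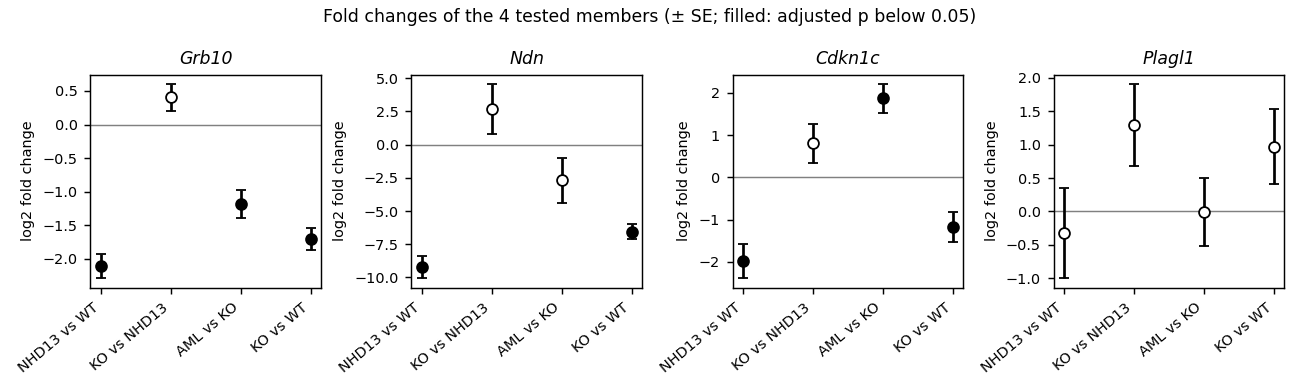
Log2 fold changes of the 4 tested genes in the 4 comparisons, ± SE of the edgeR fit over 12 libraries, on axes that differ between panels. Filled points passed an adjusted p of 0.05. Grb10, Ndn and Cdkn1c fell in NHD13 against WT, and only Grb10 and Cdkn1c passed in AML against KO, in opposite directions. Values of Ndn rest on groups at or near 0 reads and depend on the prior count.

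Set against WT rather than NHD13, the KO-labelled libraries differed for 3 of the 4 tested genes, Grb10, Ndn and Cdkn1c, each lower, where 37.1% of all genes tested were called in either direction. Grb10 was 3.26-fold lower (log2 -1.70 ± 0.17, adjusted p = 2.26e-07). Ndn was lower with 2 reads against 244, a ratio of 110 with a counting interval of 30.2 to 917 (adjusted p = 6.62e-07). Ndn passed the filter on low counts only through WT, so its fall was in part a condition of its being tested. The count of 3 in 4 includes it. Cdkn1c was 2.26-fold lower (log2 -1.18 ± 0.35, adjusted p = 0.0131), a call that was lost without replicate 1 of WT (log2 -0.84, adjusted p = 0.0930) or without replicate 2 of the KO-labelled group (log2 -0.90, adjusted p = 0.0825). Plagl1 did not pass (log2 0.97 ± 0.56, adjusted p = 0.194). Cell markers differed too: 11 of 14 tested stem cell markers fell and 2 rose, all 7 neutrophil markers rose and all 5 B cell markers fell. Fgd5 and Tek, among those that fell, passed the filter on low counts only through WT. The part of these markers in the 3 falls was not tested. This comparison shares its libraries with the 2 before it and is no separate support for them.

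The comparison of AML with the KO-labelled libraries set leukemic spleen cells against marrow HSPCs before leukemia. The growth inhibitors Cdkn1c and Grb10 moved in opposite directions, Cdkn1c up and Grb10 down, so 2 of the 4 tested genes were called. Of all genes tested, 82.4% were called, 42.8% up and 39.5% down. A share of 2 in 4 is no higher than that background.

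Cdkn1c stood at 1.94, 1.92 and 1.87 CPM in AML, above every library of the other 3 groups. The AML libraries lay close together, and the nearest other library was replicate 1 of WT at 1.66 CPM. Against the KO-labelled libraries the rise was 3.66-fold (log2 1.87 ± 0.34, adjusted p = 4.95e-05). AML against WT was not tested. Cdkn1c and Grb10, 2 of the 4, did not overlap between AML and the KO-labelled libraries, as was the case for 85.6% of all genes tested.

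Grb10 stood at 1.29, 1.96 and 1.17 CPM in AML, below every library of the other 3 groups. On FPKM, AML replicate 2 at 0.263 lay above the NHD13 libraries (0.242, 0.235 and 0.204), and AML against NHD13 was not tested. The fall from the KO-labelled libraries was 2.27-fold (log2 -1.19 ± 0.21, adjusted p = 3.29e-05). The trend with gene length in this comparison had a median log2 of -1.03 in the shortest 10% of genes and 0.99 in the longest 10%. With that trend removed the fall of Grb10 was larger (log2 -2.06, adjusted p = 1.1e-08) and the rise of Cdkn1c was log2 2.36. On log2(FPKM + 0.1), with no correction for composition, the fall of Grb10 was smaller (log2 -0.57, limma adjusted p = 0.00778), and on log2(FPKM + 1) it was -0.16 (adjusted p = 0.0192).

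Plagl1 stood at 0.345, 0.809 and 0.390 CPM in AML, around the KO-labelled values (log2 -0.00 ± 0.51, 95% interval -1.07 to 1.06, adjusted p = 0.994). The interval does not show that the groups were alike. Ndn was at 0 in all 3 AML libraries. Dlk1 was read 7, 4 and 3 times, Meg3 2, 5 and 3 times and Rian 0, 4 and 1 times, and none of these passed in the fit without a filter on low counts, where 43.9% of 33660 genes were called. In that comparison 4 of 14 tested stem cell markers rose and 6 fell, or 2 and 9 with the length trend removed. Stroma and endothelium markers summed to 166 to 172 CPM in AML, of which Pecam1 made up 102 ± 1.82 and Pdgfrb 60.2 ± 1.69. The part of these markers in the values of Cdkn1c and Grb10 was not tested.

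Across the 12 libraries, the genes most like Grb10 in log2 CPM were Ociad2, Mettl27 and Ctsf, with a Pearson r of 0.985, 0.983 and 0.982. For Ndn they were Pkia, Gbp11 and Igkv14-126 (0.994, 0.992 and 0.991), for Cdkn1c Osbpl8, Zcchc11 and Zkscan1 (0.977, 0.969 and 0.969), and for Plagl1 C130012C08Rik, Gm43489 and Frg2f1 (0.932, 0.931 and 0.895). These are descriptions over 12 libraries that fall into 4 groups, and they reflect the group means as much as the libraries.

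DNA methylation near the 10 genes was described from lists of regions that differed between 2 bisulfite libraries, with 1 library on each side and no coverage given, so the values have no replicate error and no test. Regions within 20 kb of a gene were counted. Between WT and NHD13, 7 of the 10 genes had such a region, against 68.4% of 36347 genes with coordinates. From NHD13 to the KO-labelled library 7 of 10 had a region (background 57.5%), and from KO-labelled to AML 6 of 10 (background 77.2%). These shares were near the background. Meg3, Rian and Dlk1, which lie together on chromosome 12, had none within 20 kb in any list, and the nearest region was 83.7 kb away.

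The direction and the size of the regions differed between steps. In the first step, WT to NHD13, the 26 regions near the 10 genes comprised 10 that gained methylation and 16 that lost it. A gain lay near 6 genes (background 28.6%) and a loss near 6 (60.9%). From NHD13 to the KO-labelled library the 18 regions comprised 13 gains and 5 losses, with a gain near 6 genes (background 46.1%) and a loss near 4 (25.7%). From KO-labelled to AML the 34 regions comprised 21 gains and 13 losses, and the gains held 2444 CpG sites against 128 in the losses. In that step a gain lay near 6 genes (background 43.3%) and a loss near 4 (62.9%). Among regions of at least 50 CpG, a size chosen after the regions were seen, all 10 of this last step were gains.

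Such large gains from KO-labelled to AML lay near Grb10, Cdkn1c, Ndn, Peg3, Igf2 and H19, 6 of the 10 genes, against 15.3% of all genes with coordinates. In the whole list 88.6% of regions of that size were gains, whereas 22.2% of all its 106032 regions were. Of 52 other imprinted genes with coordinates, 22 (42.3%) had such a gain, 4 of them (Ins2, Slc22a18, Usp29 and Zim1) only through a region counted for the 10 genes as well. Losses of that size lay near none of the 10 genes, against 2.75% of all genes and 6 of the 52 other imprinted genes. For WT to NHD13 a large gain lay near 2 of the 10 genes (background 7.14%) and a large loss near 0 (background 1.90%), and for NHD13 to KO-labelled a large gain lay near 1 (background 3.21%).

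**Figure D3:**
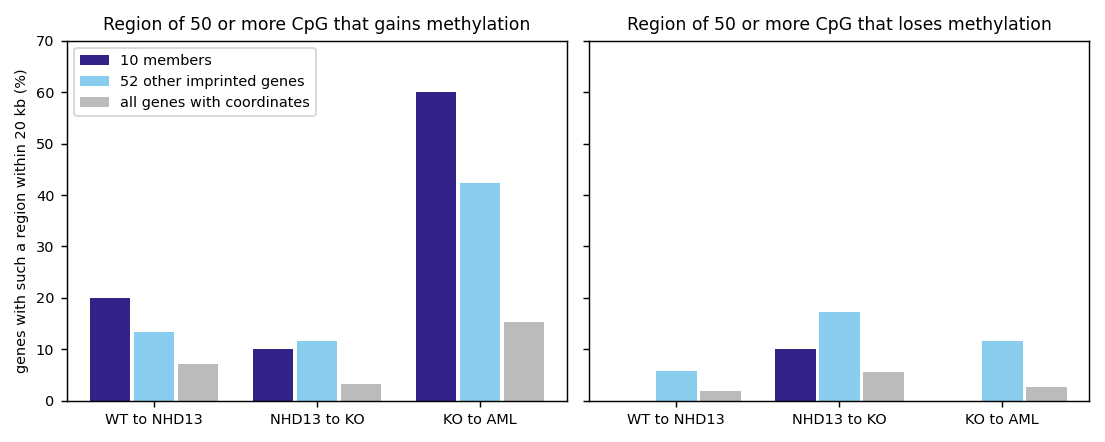
Share of genes with a region of at least 50 CpG within 20 kb, in percent, for regions that gained (left) and lost (right) methylation in each step between bisulfite libraries, 1 library a side. KO means the KO-labelled library. From KO to AML 60.0% of the 10 genes had a gain, against 42.3% of 52 other imprinted genes and 15.3% of all genes. No error can be given.

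Grb10 had the largest single region. It spanned 459 CpG at chr11:12036135-12038857, covered the promoter shown above and went from 38.5% methylated in the KO-labelled library to 92.0% in AML. Another region inside the gene, chr11:12025411-12026987 with 316 CpG, went from 75.8% to 93.5%. Part of it (chr11:12025447-12025848, 72 CpG) had already gone from 56.9% in WT to 77.9% in NHD13. The other 5 regions in Grb10 between WT and NHD13 were losses over 68 CpG in all, such as chr11:11968004-11968222 from 86.6% to 49.6%. From KO-labelled to AML 4 of the 9 regions near Grb10 were losses, over 53 CpG in all, such as chr11:11967553-11968222 in the gene body from 64.8% to 19.7% over 28 CpG. From NHD13 to the KO-labelled library all 4 regions in Grb10 were gains. Inside the 459 CpG region, 17 CpG (chr11:12036491-12036578) went from 17.9% to 35.8% and 22 CpG (chr11:12036896-12036956) from 35.7% to 52.6%. Grb10 RNA was not called different in that step, at 2.53 CPM in NHD13 and 3.36 in the KO-labelled libraries. The gain over the promoter and the fall in RNA stood side by side in AML, and no link between them was tested.

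At Cdkn1c the region over the gene, chr7:143459008-143460524 with 333 CpG, went from 60.4% to 95.2% in AML, the group with the highest Cdkn1c RNA. A region 12 kb from it, chr7:143444672-143446364 with 224 CpG, went from 44.3% to 94.9%. Methylation over the gene had been listed as higher in NHD13 than in WT, at 53.9% and 74.0% over 96 CpG (chr7:143459235-143459576) and at 42.2% and 65.3% over 106 CpG (chr7:143460683-143461213). It was listed as lower in the KO-labelled library than in NHD13 over 35 CpG (chr7:143459356-143459491), at 59.8% against 75.7%. In that step 3 gains of at least 50 CpG lay 12.1 to 19.8 kb away, such as chr7:143445084-143445600 (110 CpG, from 24.5% to 45.6%). The 2 losses near Cdkn1c from KO-labelled to AML held 25 CpG in all. Grb10 and Cdkn1c thus both had large gains in AML while their RNA went in opposite directions.

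At Ndn, chr7:62348058-62349110 with 110 CpG went from 50.6% to 87.5%. It reached from the promoter shown above into the gene. Ndn had already been at 0 reads in NHD13, and no region from WT to NHD13 overlapped the gene (the nearest lay 12.8 kb away). Between NHD13 and the KO-labelled library 15 CpG inside it (chr7:62348435-62348525) were listed at 31.3% and 47.5%.

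Of the other genes of the imprinted cluster of Ndn, Snrpn, Snurf and Ube3a had no gain of at least 50 CpG within 20 kb from KO-labelled to AML, and 3 had one: Magel2 (53 CpG, from 55.1% to 79.2%), Mkrn3 (104 CpG, from 58.0% to 78.0%) and Peg12 (265 CpG, from 66.3% to 91.0%). Mkrn3, which encodes a ring finger protein, followed a pattern like that of Ndn, at 0.884 CPM in WT, 0.138 in NHD13 and 0 in all KO-labelled and AML libraries. It fell in NHD13 against WT (log2 -2.63 ± 0.57, adjusted p = 0.00118), but like Ndn it passed the filter on low counts only through WT, so that fall was in part a condition of its being tested. Peg12 had too few counts to be tested, at 0.453 CPM in WT, 0.122 in NHD13, 0.0176 in the KO-labelled libraries and 0 in AML. Magel2 had no read in any library.

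Peg3, Igf2 and H19 had large gains from KO-labelled to AML while staying at or near 0 reads. All 5 regions near Igf2 and all 3 near H19 were gains in that step, whereas near Peg3 5 were gains over 300 CpG and 6 were losses over 46 CpG, 1 of them inside the gene (chr7:6716021-6716146, from 58.1% to 19.8%). The Peg3 region chr7:6729066-6731297 (210 CpG), which covers the promoter shown above and also overlaps the neighbour Usp29, went from 62.1% to 89.0%, and a region at the neighbour Zim1 (chr7:6696146-6696786, 62 CpG) from 35.7% to 74.5%. At Igf2, chr7:142658750-142661540 with 401 CpG went from 26.1% to 72.5%. It covered the promoter shown above and the start of another Igf2 transcript, and part of it (chr7:142659338-142659525, 46 CpG) had gone from 12.7% in NHD13 to 38.0% in the KO-labelled library. Between WT and NHD13 other stretches of it had lost methylation, at chr7:142658750-142658824 (11 CpG, from 33.8% to 14.6%) and chr7:142658919-142659030 (19 CpG, from 31.2% to 13.8%), both overlapping the promoter shown. At H19, chr7:142578044-142578769 with 57 CpG went from 60.5% to 89.7%. Inside that stretch 7 and 9 CpG had gone from 74.1% and 74.8% in WT to 53.6% and 56.5% in NHD13. Beyond the end coordinate of H19, on the side of Igf2, 25 CpG at chr7:142580547-142580930 went from 61.4% in NHD13 to 40.6% in the KO-labelled library, and an overlapping set of 20 CpG (chr7:142580375-142580589) from 41.2% to 61.2% in AML.

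**Figure D4:**
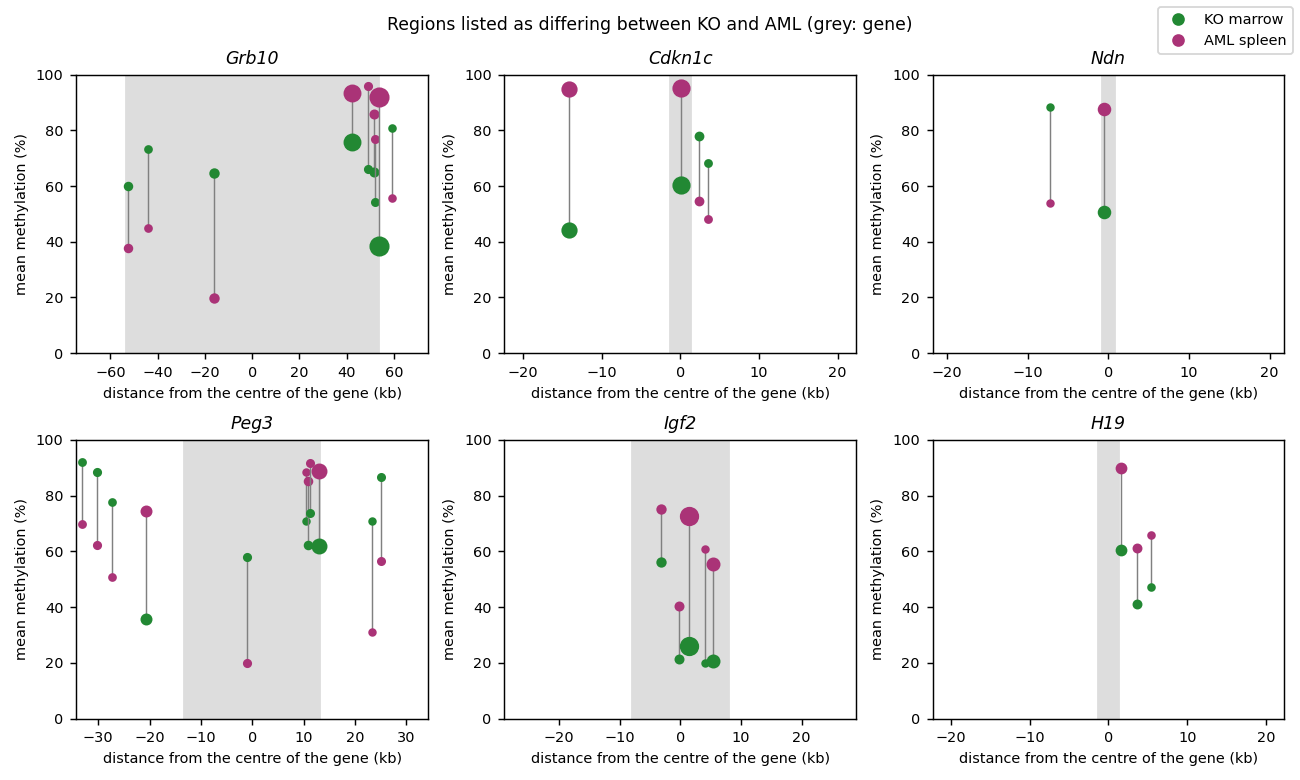
Mean methylation in percent of each region listed as differing between the KO-labelled marrow library and the AML spleen library, against its distance in kb from the centre of the gene. Grey marks the gene, and larger points hold more CpG. The largest points of every panel are higher in AML, such as 38.5% to 92.0% at Grb10 and 26.1% to 72.5% at Igf2.

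Plagl1 went the other way in another step. From NHD13 to the KO-labelled library chr10:13090734-13091128, with 92 CpG across the promoter shown above and the start of the gene, went from 67.0% to 49.1%. It was the only loss of at least 50 CpG near the 10 genes in that step. There 5.58% of all genes and 9 of 52 other imprinted genes (17.3%) had such a loss nearby. From KO-labelled to AML no region was listed within 20 kb of Plagl1.

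In the domain of Dlk1, Meg3 and Rian, large gains from KO-labelled to AML were listed farther away, at Begain (261 CpG, from 41.5% to 82.5%) and at Dio3 (756 CpG, from 52.1% to 86.2%).

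No H3K36me3 peak overlapped any of the 10 genes in either ChIP library, and none lay within 5 kb. Of genes with coordinates, 30.8% were overlapped by a peak in the NHD13 - AML library, which has 30953 peaks, and 18.1% in the library labelled NHD13/Setd2 KO - AML, which has 16902. Within 5 kb the shares were 37.2% and 23.4%. These shares are over all genes whatever their RNA level, whereas most of the 10 genes had few or no reads. The part of low RNA in the absence of peaks was not tested. The nearest peaks to the 10 genes lay from 27.4 kb (H19) to 1537 kb (Ndn) away in the first and from 29.5 kb (Plagl1) to 1541 kb (Ndn) away in the second. Neighbours of Cdkn1c and H19 in the distal chromosome 7 domain did carry peaks in the NHD13 - AML library. Peaks covered 86.8% of Nap1l4, 49.2% of Cd81 and 16.4% of Tssc4 there, and 37.9%, 2.67% and 0% in the KO-labelled AML library. Coverage of Kcnq1ot1, a noncoding RNA gene of the same domain, was 5.22% and 5.07%. Peaks were called on 1 library each, so these shares have no replicate error.

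Other imprinted genes, a list of 54 of which 33 were tested, did not move in a single direction. In NHD13 against WT 4 rose and 12 fell, with a median log2 fold change of -0.21 against -0.04 over all genes tested, where 25.3% of all genes rose and 28.7% fell. Sgce, the paternally expressed epsilon-sarcoglycan gene, was 8.89 ± 0.686 CPM in WT and fell to 0.278 ± 0.213 CPM (log2 -4.98 ± 0.31, adjusted p = 1.25e-10). It passed the filter on low counts only through WT, so its fall was in part a condition of its being tested. The noncoding Peg13 fell from 25.6 ± 2.41 to 5.80 ± 0.121 CPM. Gatm, an enzyme gene of creatine synthesis that is imprinted in placenta, rose from 184 ± 7.40 to 601 ± 9.94 CPM. Like Ndn, Sgce stayed low in the KO-labelled libraries and in AML, at 0.313 and 0.331 CPM.

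Between NHD13 and the KO-labelled libraries 9 of the 33 rose and 4 fell (median log2 0.22 against 0.02), where 20.6% of all genes rose and 20.3% fell. Peg13 rose back to 17.9 ± 2.78 CPM (log2 1.63 ± 0.12, adjusted p = 2.10e-09). Mcts2, a retrogene whose reads may be shared with its near-identical parent, rose from 2.79 ± 0.735 to 17.7 ± 0.656 CPM. Gatm fell to 227 ± 1.71 CPM. From KO-labelled to AML 18 rose and 13 fell (median log2 0.48 against 0.07), where 42.8% of all genes rose and 39.5% fell. With the length trend removed 15 rose and 12 fell, with a median log2 of 0.07. Nnat and Begain, among those that rose, passed the filter on low counts only through AML, so their rises were in part a condition of being tested. Igf2r, whose product clears IGF2 from the cell surface, rose from 4.09 ± 0.447 to 34.1 ± 0.783 CPM (log2 3.07 ± 0.15, edgeR adjusted p = 8.04e-13). Across 7 settings, including the removal of the length trend, its log2 ran from 1.97 to 3.19. The tetraspanin gene Cd81 fell from 245 ± 11 to 61.8 ± 1.40 CPM and Gatm to 13 ± 0.833 CPM.

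**Figure D5:**
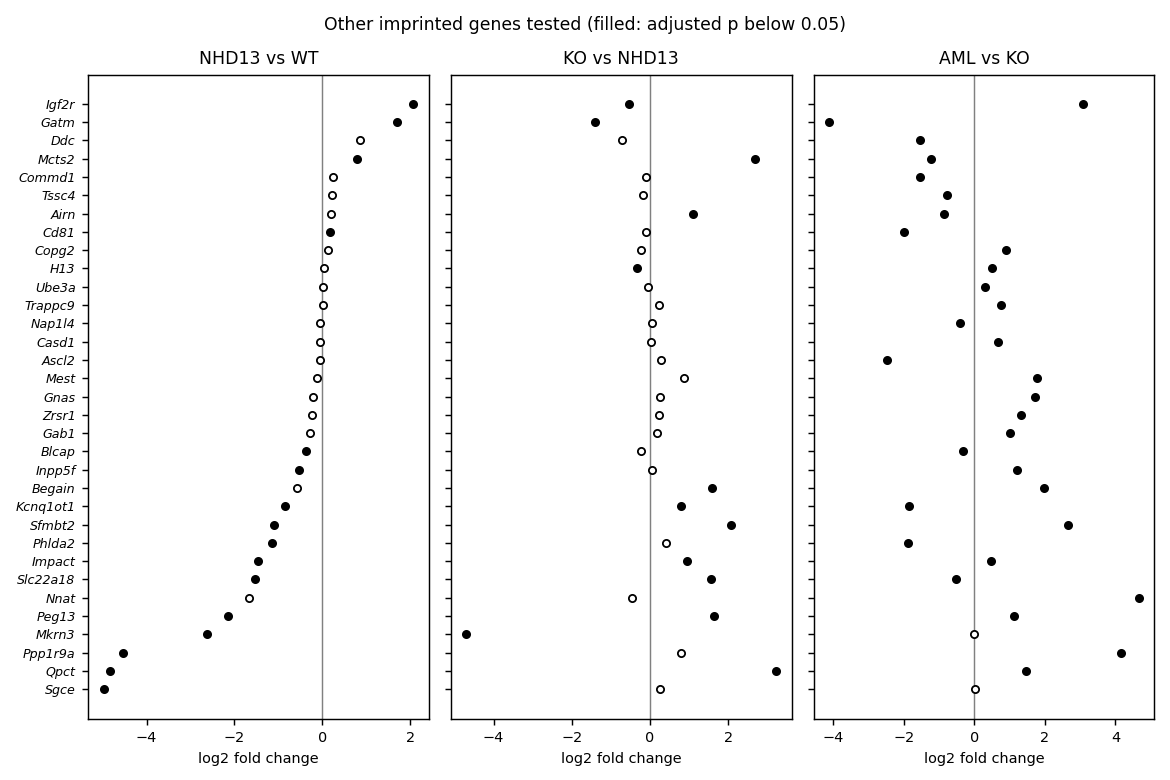
Log2 fold change of the 33 other imprinted genes that were tested, in 3 comparisons, ordered by their change in NHD13 against WT. KO means the KO-labelled libraries. Filled points passed an adjusted p of 0.05: 4 rose and 12 fell in NHD13 against WT, 9 rose and 4 fell in KO against NHD13, and 18 rose and 13 fell in AML against KO.

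Grb10 binds receptors of the insulin-like growth factor (IGF) axis. Of 16 listed genes of that axis 9 were tested, and 5 rose and 0 fell from KO-labelled to AML, with a median log2 fold change of 0.71 against 0.07 over all genes tested. Of all genes tested 82.4% were called and 42.8% rose, so a count of 5 in 9 is near the background. Igf1r, the receptor of IGF1, rose from 31.3 ± 2.75 to 138 ± 4.73 CPM (log2 2.14 ± 0.12, adjusted p = 4.05e-11). The insulin receptor gene Insr rose from 28.2 ± 3.28 to 73.1 ± 0.345 CPM (log2 1.38 ± 0.09). The size of both rises depended on the processing. Across 7 settings, including the removal of the length trend, log2 ran from 1.04 to 2.49 for Igf1r and from 0.33 to 1.74 for Insr. With the length trend removed 5 rose and 2 fell, and on both log2(FPKM) scales 7 rose and 0 fell. From WT to NHD13 3 rose and 2 fell, and from NHD13 to KO-labelled 1 rose and 2 fell. Igf1, among the genes lower in NHD13 than in WT, passed the filter on low counts only through WT. Igf2bp3, an RNA-binding protein gene of the fetal blood program that binds Igf2 RNA, rose from 0.824 ± 0.250 CPM in WT to 24.8 ± 1.09 in NHD13 (log2 4.91 ± 0.13, adjusted p = 6.21e-16) and to 39.4 ± 0.164 in the KO-labelled libraries.

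Of 13 listed genes that keep or erase imprints 12 were tested, and 10 rose and 1 fell from KO-labelled to AML (median log2 1.64 against 0.07), where 82.4% of all genes were called and 42.8% rose. With the length trend removed 10 rose and 2 fell (median log2 1.01). Zfp57, among those that rose, passed the filter on low counts only through AML, so its rise was in part a condition of its being tested. Zfp445, a zinc finger gene of imprint control, rose from 24.7 ± 0.288 to 113 ± 4.40 CPM (log2 2.19 ± 0.07, adjusted p = 7.91e-16), Tet3, a gene for an enzyme that oxidises methylated cytosine, from 31.0 ± 1.03 to 142 ± 4.95 CPM, and the histone methyltransferase gene Setdb1 from 28.8 ± 1.02 to 78.6 ± 3.44 CPM. The gene that fell, named after its values were seen, was the insulator gene Ctcf (log2 -0.18 ± 0.06, adjusted p = 0.00710). Its direction turned with the scaling, to 0.23 on log2(FPKM + 0.1) and 0.22 on log2(FPKM + 1), where all 12 tested genes rose. From WT to NHD13 1 rose and 4 fell, among them Tet1, a gene for an enzyme that removes methylation (20.8 ± 1.03 to 4.08 ± 0.742 CPM). On both log2(FPKM) scales 0 rose and 10 fell in that comparison. From NHD13 to KO-labelled 5 rose and 0 fell, among them the methyltransferase gene Dnmt3b (17.0 ± 2.32 to 47.3 ± 2.53 CPM).

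Other genes named as cyclin-dependent kinase inhibitors split between directions. Of 7 listed 6 were tested. Cdkn1a, the gene of p21, fell from 162 ± 5.13 CPM in WT to 34.2 ± 4.33 in NHD13, stood at 167 ± 16.2 in the KO-labelled libraries and fell to 17.2 ± 0.489 in AML, each step past the test. From KO-labelled to AML Cdkn1b, the gene of p27, rose as Cdkn1c did (16.9 ± 1.16 to 52.1 ± 3.46 CPM). Cdkn2c (1.87 ± 0.276 to 10.5 ± 0.703 CPM) and Cdkn2a rose too. Of the 6 tested, which leave out Cdkn1c, 3 thus rose and 3 fell, also with the length trend removed. Of all genes tested 82.4% were called, 42.8% higher and 39.5% lower, so this split sets nothing apart. Cdkn2a passed the filter on low counts only through AML, so its rise was in part a condition of its being tested. From WT to NHD13 2 rose and 2 fell (54.0% of all genes tested were called), and from NHD13 to KO-labelled 2 rose and 3 fell (40.9% called).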

How the data were processed

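The sample titles gave the groups and replicate numbers. Cells were sorted by flow cytometry and RNA libraries were made with a NEBNext Ultra kit, per the labels' protocols. The authors deposited read counts per gene and an FPKM table that equals count per length and library total (largest relative difference 5.2e-15). Per the submitters' processing notes HISAT2 2.0.5, HTSeq 0.9.1 and DESeq2 1.22.2 were used on mm10, with Bowtie2 2.2.9, SAMtools 1.7, MACS2 2.1.1.20160309 and Bismark 0.19.0, without the role of each. No source used here says whether counting used strand, so genes that overlap others or an antisense RNA are uncertain. The deposited peak lists give, in the MACS2 layout, a fold enrichment, a score and −log10 p and q values for each broad peak of 1 library, of which the positions were used, and the q values for an alternative threshold. The deposited region tables give, per the file headers, mean methylation of each side as a fraction, printed here as a percent, with a score and the number of CpG. No source used here names their caller or gives their coverage. The assignment of sides to libraries was checked on 4032 and 2467 regions shared between tables.

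Counts were tested with edgeR 4.0.16 (R 4.3.3): TMM factors, filterByExpr, 1 model over 12 libraries (8 residual degrees of freedom), robust quasi-likelihood F test, and Benjamini-Hochberg adjustment over 16233 genes at 0.05. The SE printed beside a log2 fold change was taken as |log2| / √F. A fold against a group without counts used a floor of 3 counts over the group, and counting intervals are exact Poisson intervals at 95% that cover counting error only. The scripts were tested on simulated data. Coordinates and promoters came from RefSeq tables of GRCm38.p6, the assembly behind mm10, matched by symbol (36347 genes, all 10 described here and 52 of the 54 other imprinted genes). No promoter was listed for H19 and Cdkn1c.

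The genes and the lists were chosen with earlier results of these data known. Named genes were the 10, up to 3 of each list with the smallest p in a comparison, genes of the same imprinted domain under a listed region or peak, the 3 genes most like each tested member by Pearson r, and Setd2. Alternatives were DESeq2 1.42.0, RLE and upper-quartile factors, no filter on low counts, a gene length correction, the replicate number as a block, limma 3.58.1 on log2(FPKM + 0.1) and log2(FPKM + 1), only the groups compared, each library left out, and other windows and thresholds for regions. The count of large gains and losses was added after the regions were seen.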

Additional observations from a re-analysis of the deposited data

How the results depend on the processing

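Of 256 fold changes of the 4 tested genes under other settings, 246 kept their direction and their side of the threshold, 8 changed sign and 2 lost their call. The changes of sign were all in Plagl1, which passed in no comparison: in NHD13 against WT its log2 ran from -0.74 to 0.36 with 1 library left out, above 0 without replicate 3 of WT (0.36) or replicate 1 of NHD13 (0.10). In AML against the KO-labelled libraries it was 0.016 with no filter on low counts, 0.15 on log2(FPKM + 0.1) and 0.026 on log2(FPKM + 1), and ran from -0.48 to 0.21 with 1 library left out. The cause was not tested. The lost calls were those of Cdkn1c in the KO-labelled libraries against WT given above. With no filter on low counts 1 gene, Dlk1, rose in the KO-labelled libraries against NHD13. With a methylation difference of at least 0.3, regions lay near 2 of the 10 genes from WT to NHD13 and near 0 from NHD13 to KO-labelled, since fewer regions enter. Other counts of the 10 genes stayed within 1.5 times their value under the alternatives run.

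With the replicate number as a block, 4035 genes rose and 4533 fell in NHD13 against WT (4112 and 4652 without it), and the block changed no call of the 10 genes. Same-numbered libraries of different groups had a median correlation of 0.00248 (-0.0876 to 0.109, 18 pairs) and 3 of 12 libraries correlated best with their own number, so the numbers do not pair the libraries. Scaling moved the split of all calls in NHD13 against WT: 3368 rose and 5298 fell with upper-quartile factors and 1683 and 8305 on log2(FPKM + 1), with the median log2 of all genes at -0.12 and -0.21 against -0.04. On log2(FPKM + 1), 2 of the other imprinted genes rose and 21 fell there, and 12 rose and 1 fell in the KO-labelled libraries against NHD13. Depth limits H19, Igf2, Peg3, Meg3, Rian and Dlk1, whose reads number at most 48 over 12 libraries.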
